A study of Mus musculus with 24 samples.

Results

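Hsph1, Hspa8 and Hspa14 encode chaperones of the Hsp110 and Hsp70 families, and Bag3 encodes a co-chaperone that binds Hsp70. The genes were taken as every probe whose platform annotation gives exactly 1 gene symbol, equal to 1 of these 4 names. This gave 12 member probes, of which 9 were among the 7680 probes of slide type 1 and 3 among the 7680 probes of slide type 2. All 4 genes were among the 3838 genes of slide type 1, and of these only Hspa8 was among the 4075 genes of slide type 2.

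The study cultured mouse embryos and set total RNA of heat-shocked embryos against total RNA of untreated control embryos on arrays with 2 channels. The heat-shocked group spent 15 min at 43 °C and then 1 h of recovery at 37 °C, and the control group stayed at 37 °C. The labels give 3 numbered treatments, each with 4 arrays per slide type, 24 arrays in all. In each treatment both channel orders were run, and in each order 1 of the arrays carries a suffix in its slide code whose meaning is not stated. The labels give no genotype, strain, stage, sex or litter for either group, and nothing in them says that the 3 treatments used separate litters or cultures. The p-values therefore rest on the spread between these treatments, pooled in part over all probes or genes. The small number of treatments limits the precision.

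Hsp70 proteins bind unfolded stretches of other proteins and release them in a cycle driven by ATP. J-domain proteins start the cycle by raising ATP hydrolysis, and nucleotide exchange factors, among them the Hsp110 proteins and the Bag family, end it by releasing ADP. Hspa8, also called Hsc70, is made in nearly all cells without stress, whereas heat raises transcription of other family members through the factor Hsf1. Hsf1 binds heat shock elements, which are runs of the unit GAA in alternating direction. Hsph1, also called Hsp105, is a stress-responsive Hsp110 exchange factor. Bag3 is a stress-responsive Bag protein that links Hsp70 to small heat shock proteins and to autophagy. Hspa14, also called Hsp70L1, works with the J-domain protein Dnajc2 at the ribosome.

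The bases just before the transcription start are shown for the 3 genes with a RefSeq promoter window, because they differ in whether inverted GAA units lie there. A window is 250 bases before to 50 bases after the start, and the 250 bases before it are printed 5′ to 3′ on the gene's strand in build GRCm38.p6. Capitals mark a match to GAANNTTC or TTCNNGAA, which are the ways that a pair of inverted GAA units can meet and which read the same on both strands. The windows lie at chr5:149636337-149636586 on the minus strand for Hsph1, chr7:128523333-128523582 on the plus strand for Bag3 and chr2:3512815-3513064 on the minus strand for Hspa14.
Hsph1: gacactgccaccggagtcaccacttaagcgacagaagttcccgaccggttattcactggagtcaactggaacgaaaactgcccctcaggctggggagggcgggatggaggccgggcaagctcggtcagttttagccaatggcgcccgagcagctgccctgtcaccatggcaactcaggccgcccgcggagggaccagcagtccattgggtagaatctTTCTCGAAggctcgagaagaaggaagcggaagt
Bag3: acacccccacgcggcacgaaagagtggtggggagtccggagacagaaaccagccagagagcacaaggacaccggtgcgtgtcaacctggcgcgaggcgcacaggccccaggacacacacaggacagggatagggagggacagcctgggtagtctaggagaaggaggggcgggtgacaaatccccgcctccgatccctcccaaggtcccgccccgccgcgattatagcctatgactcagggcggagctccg
Hspa14: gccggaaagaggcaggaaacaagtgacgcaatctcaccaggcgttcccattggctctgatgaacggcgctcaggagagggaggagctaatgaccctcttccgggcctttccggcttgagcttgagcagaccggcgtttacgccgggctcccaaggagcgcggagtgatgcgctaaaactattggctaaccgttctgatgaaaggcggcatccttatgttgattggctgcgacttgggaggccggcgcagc
In Hsph1 the match TTCTCGAA began 33 bases before the start. The transcribed part of that window held matches to both motifs, TTCTGGAA from 37 bases after the start and GAAAGTTC from 42 bases after it, which overlap. A second listed Hsph1 start, for which the same matches lie at −54, 16 and 21 bases, shares most of this window. Bag3 had no match before the start and 1 after it, GAAGTTTC from base 43. Hspa14 had none in its window. Of 32851 RefSeq windows of 300 bases, 7.86% held GAANNTTC, 8.52% held TTCNNGAA and 15.1% held either, and 12.8% held either before the start. A match is a string of letters and not a site of Hsf1 binding, and its absence from a window says nothing about the factor. Hspa8 was not in the promoter table.

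The values are the authors' deposited log ratios, whose log base and numerator are not stated. The median over all probes was subtracted from every array, and the sign was turned where heat-shocked RNA was in channel 2. If channel 1 was the numerator, a positive value means more RNA after heat shock, and with channel 2 as the numerator it means less. The direction is unsettled for this reason, and values are given by side. A mirrored ratio would exchange the sides and leave each size as given. With log base 2, 1 unit is 2-fold, and with the natural log it is 2.72-fold. The 4 arrays of a treatment were averaged with equal weight for each channel order, and limma tested the mean of the 3 treatments with p-values adjusted over every probe, or every gene, on that slide type. The p-values and limma intervals use a spread that limma draws toward that of all probes or genes on the slide type. A fit that leaves out 1 treatment has only 2, so its p-values can rest almost wholly on that pooled spread. A probe or gene is called below where that adjusted p was under 0.05.

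On these terms the stress-responsive members Hsph1 and Bag3 lay on the positive side, and the constitutive members Hspa8 and Hspa14 passed the test on neither side. The gene values on slide type 1 were 2.28 ± 0.50 for Hsph1, 0.73 ± 0.19 for Bag3, 0.28 ± 0.37 for Hspa8 and −0.11 ± 0.01 for Hspa14 (SD, n = 3 treatments). The SD of 0.01 arose from averaging Hspa14 probes that differed, with SDs of 0.14 and 0.15. Hspa8 on slide type 2 had −0.03 ± 0.26. No other of the 3838 genes lay above Hsph1, 23 lay above Bag3 and 147 above Hspa8. With log base 2 the size is 4.87-fold for Hsph1, with a 95% limma interval of 3.90 to 6.07, and 1.66-fold for Bag3, with an interval of 1.48 to 1.86. With the natural log these sizes are 9.81-fold and 2.08-fold. Of the 9 member probes on slide type 1, 4 were called positive and 0 negative, and Hspa14 probe 6276 was the only one below 0 with an unadjusted limma p under 0.05. Among all probes there, 11.0% were called positive and 5.09% negative. Of the 3 member probes on slide type 2, 0 were called by limma and 0 had an unadjusted limma p under 0.05, where 28.9% of all probes were called positive and 24.4% negative. Without centring, the split of calls on slide type 1 moved from 844 positive and 391 negative to 1210 and 14, and on slide type 2 from 2219 and 1877 to 422 and 135. With centring on the probes of 1 symbol it was 996 and 221 on slide type 1 and 3283 and 1205 on slide type 2.

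**Figure D1:**
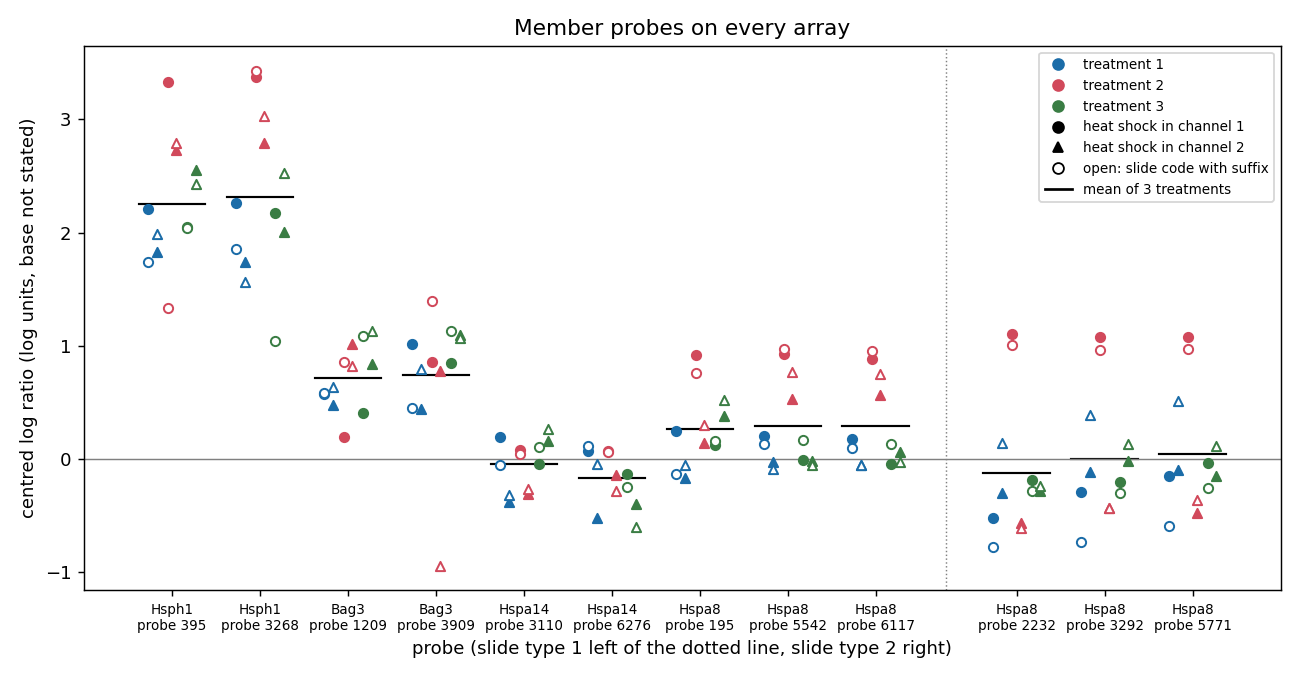
Centred, sign-turned log ratio (y axis, log units of unstated base) of each of the 12 member probes (x axis) on each of the 12 arrays of its slide type; colours are the treatments, circles have heat-shocked RNA in channel 1 and triangles in channel 2, open symbols carry the suffix, and the bar is the mean of 3 treatments. Both Hsph1 probes lay above 1 on every array, whereas the 3 Hspa8 probes of slide type 2 lay near 1 on the circles of treatment 2 and below 0 on its triangles.

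Hsph1, the Hsp110 exchange factor, was positive on all 12 arrays at both of its probes. With heat shock in channel 1, probe 395 read 2.21 and 1.74 in treatment 1, 3.33 and 1.33 in treatment 2, and 2.05 and 2.04 in treatment 3, the array without the suffix first. With heat shock in channel 2 it read 1.82 and 1.98, 2.73 and 2.79, and 2.55 and 2.43. Only the arrays of treatment 2 in the first order disagreed by more than 1 unit. Probe 3268 read 2.26 and 1.85, 3.37 and 3.43, and 2.18 and 1.04 in the first order, and 1.74 and 1.57, 2.79 and 3.03, and 2.0 and 2.53 in the second. Treatment 2 was the highest of the treatments at both probes. The treatment means were 1.94, 2.55 and 2.27 at probe 395 and 1.86, 3.16 and 1.94 at probe 3268. These gave 2.25 ± 0.30 (SD, n = 3 treatments, limma adjusted p = 7.5e-09) and 2.32 ± 0.73 (limma adjusted p = 4.32e-07). Among all 7680 probes, probe 3268 had the highest mean and probe 395 ranked 2. The call of probe 3268 was lost with a robust prior (limma adjusted p = 0.0847), and that of the gene was kept in all 12 alternatives.

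Bag3, the exchange factor that couples Hsp70 to small heat shock proteins, was positive on 12 arrays at probe 1209 and on 11 of 12 at probe 3909. Probe 1209 read 0.57 and 0.58 in treatment 1, 0.19 and 0.85 in treatment 2, and 0.41 and 1.09 in treatment 3 with heat shock in channel 1. In the other order it read 0.48 and 0.63, 1.01 and 0.82, and 0.84 and 1.13. Its lowest array was thus 1 of treatment 2, and no array fell below 0. Probe 3909 read 1.02 and 0.45, 0.85 and 1.39, and 0.85 and 1.13 in the first order, and 0.44 and 0.79, 0.78 and −0.94, and 1.10 and 1.07 in the second. The value of −0.94, on the suffix array of treatment 2, was the only one of this probe below 0. The treatment means were 0.57, 0.72 and 0.86 at probe 1209, or 0.72 ± 0.15 (SD, n = 3 treatments, limma adjusted p = 4.69e-06). At probe 3909 they were 0.67, 0.52 and 1.04, or 0.74 ± 0.27 (limma adjusted p = 2.29e-05). Unlike Hsph1, Bag3 was highest in treatment 3 at both probes, although with heat shock in channel 1 alone probe 3909 was highest in treatment 2. With heat shock in channel 2 alone, probe 3909 had 0.54 and was not called (limma adjusted p = 0.115), whereas the gene was called in all 12 alternatives.

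Hspa8, the constitutive Hsp70, had 3 probes on slide type 1, of which 5542 and 6117 separated treatment 2 from the others. At probe 5542 the 4 arrays of treatment 2 read 0.92, 0.97, 0.53 and 0.76, while the arrays of treatments 1 and 3 lay between −0.09 and 0.20. At probe 6117 the arrays of treatment 2 read 0.88, 0.95, 0.56 and 0.75, and the others lay between −0.06 and 0.18. The groups did not overlap at these probes, which read nearly alike (r = 0.996). The share of all probes that separate treatment 2 in this way was not counted. At probe 195 the groups overlapped, with 0.92, 0.75, 0.14 and 0.30 in treatment 2, 0.13, 0.15, 0.38 and 0.52 in treatment 3, and −0.17 to 0.24 in treatment 1. At probe 195 treatment 3 lay above treatment 2 with heat shock in channel 2, at 0.45 against 0.22. The treatment means were −0.03, 0.53 and 0.30 at probe 195, 0.05, 0.80 and 0.02 at probe 5542, and 0.04, 0.79 and 0.03 at probe 6117. The probe means of 0.27 ± 0.28, 0.29 ± 0.44 and 0.29 ± 0.43 (SD, n = 3 treatments) had limma adjusted p = 0.0575, 0.122 and 0.126, and unadjusted limma p under 0.05 at all 3. As a gene Hspa8 had 0.28 with a 95% limma interval of 0.03 to 0.53 that is not adjusted for the number of genes (limma adjusted p = 0.15). Without treatment 2 the gene value was 0.069, and without treatment 1 it was 0.41 and was not called (limma adjusted p = 0.132). In the fit of probes without treatment 1, all 3 were called, at 0.41 each (limma adjusted p = 0.000249, 0.000722 and 0.000701). That fit had only 2 treatments, at 0.80 and 0.02 for probe 5542. Its p-values thus rest mainly on the spread pooled over all probes and not on that of these probes. The gene was called without centring, at 0.58 (limma adjusted p = 0.0081), where the median over all probes moved by 0.30. In a fit of all 12 arrays with the treatment as a random block it was 0.28 and was called too (limma adjusted p = 0.030).

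On slide type 2 the 3 Hspa8 probes had means near 0. Probe 2232 had treatment means of −0.37, 0.24 and −0.25, probe 3292 of −0.19, 0.29 and −0.10, and probe 5771 of −0.08, 0.30 and −0.08. Averaged over both channel orders, treatment 2 was again the highest at each probe. The overall values were −0.13 ± 0.32, 0.00 ± 0.26 and 0.05 ± 0.22 (SD, n = 3 treatments, limma adjusted p = 0.279, 0.989 and 0.627). Within treatment 2 the channel orders lay on opposite sides of 0, and with heat shock in channel 2 treatment 2 was the lowest treatment at all 3 probes. The arrays with heat shock in channel 1 read 1.107 and 1.01 at probe 2232, 1.07 and 0.96 at probe 3292, and 1.08 and 0.97 at probe 5771. Those with heat shock in channel 2 read −0.56 and −0.61, −0.44 and −0.44, and −0.48 and −0.36. Before centring, every Hspa8 value on slide type 2 was negative, whichever channel held the heat-shocked RNA. With heat shock in channel 1 they ran from −0.77 to −0.30 and in the other order the lowest was −0.99. The deposited medians of the treatment 2 arrays were −1.51 and −1.30 in the first order and −1.28 and −1.18 in the second, against −1.01 to 0.24 on the other arrays of slide type 2. The SD over all probes was 0.59 to 0.79 on these treatment 2 arrays and 0.37 to 0.46 on the others. Without treatment 2 Hspa8 was called on the negative side of slide type 2, at −0.18 (limma adjusted p = 0.0172), with probe 2232 at −0.31 (limma adjusted p = 5.36e-05) and probe 3292 at −0.14 (limma adjusted p = 0.0417). Arrays of the same channel order correlated as low as r = −0.34 over all probes of slide type 2, while the treatment means that were tested correlated at r = 0.82 to 0.90. With the sign of treatment 2 turned Hspa8 had −0.21 (limma adjusted p = 1.00). This turned fit cannot test the orientation of treatment 2, because the treatment means correlated.

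Hspa14, the Hsp70 of the ribosome-associated complex, stayed close to 0. Probe 3110 read 0.20 and −0.05, 0.08 and 0.04, and −0.04 and 0.11 in treatments 1 to 3 with heat shock in channel 1, and −0.38 and −0.32, −0.31 and −0.27, and 0.16 and 0.26 in the other order. Probe 6276 read 0.07 and 0.12, 0.07 and 0.06, and −0.13 and −0.25 in the first order, and −0.52 and −0.05, −0.15 and −0.28, and −0.40 and −0.60 in the second. With heat shock in channel 2, probe 6276 was thus below 0 on every array, and probe 3110 on those of treatments 1 and 2. The probe means were −0.04 ± 0.14 and −0.17 ± 0.15 (SD, n = 3 treatments, limma adjusted p = 0.79 and 0.132), and probe 6276 had an unadjusted limma p of 0.0292. The treatment means were −0.14, −0.12 and 0.12 at probe 3110 and −0.10, −0.07 and −0.35 at probe 6276. The probes thus lay on opposite sides of 0 in treatment 3. As a gene, averaged over both probes, Hspa14 had −0.12, −0.10 and −0.11 in the treatments (limma adjusted p = 0.259). These averages lay closer together than the treatment means of either probe. The 95% interval of the gene was −0.23 to 0.01. Without centring its value was 0.20, below the shift of 0.30 that all probes took, and with heat shock in channel 1 alone it was 0.021.

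Hsph1 lay above the constitutive Hspa8 in every treatment, and Bag3 did so in treatments 1 and 3. Hsph1 minus Hspa8 was 1.88, 2.15 and 1.99 on slide type 1, or 2.0 ± 0.14 (SD, n = 3 treatments). This spread is smaller than the SD of 0.50 of Hsph1 or of 0.37 of Hspa8, and both genes were highest in treatment 2. Bag3 minus Hspa8 was 0.60, −0.08 and 0.84, or 0.45 ± 0.48, so in treatment 2 Bag3 did not lie above Hspa8. Hsph1 minus Bag3 was 1.28, 2.23 and 1.15. Hsph1 minus Hspa14 was 2.39 ± 0.49 and Bag3 minus Hspa14 was 0.84 ± 0.20. Hspa14 minus Hspa8 was −0.14, −0.80 and −0.23. For Hspa8, slide type 1 minus slide type 2 was 0.23, 0.43 and 0.26, or 0.31 ± 0.11, over different probes and tables that were deposited apart. The exact two-sided sign-flip permutation test over 3 treatments cannot give p below 0.25. It gave exact p = 0.25 for 6 of these 7 differences and exact p = 0.5 for Bag3 minus Hspa8, with Benjamini-Hochberg values of 0.292 and 0.5. In the order of the gene values Hspa14, Hspa8, Bag3 and Hsph1, Bag3 and Hspa8 are neighbours whose difference lay within its spread.

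**Figure D2:**
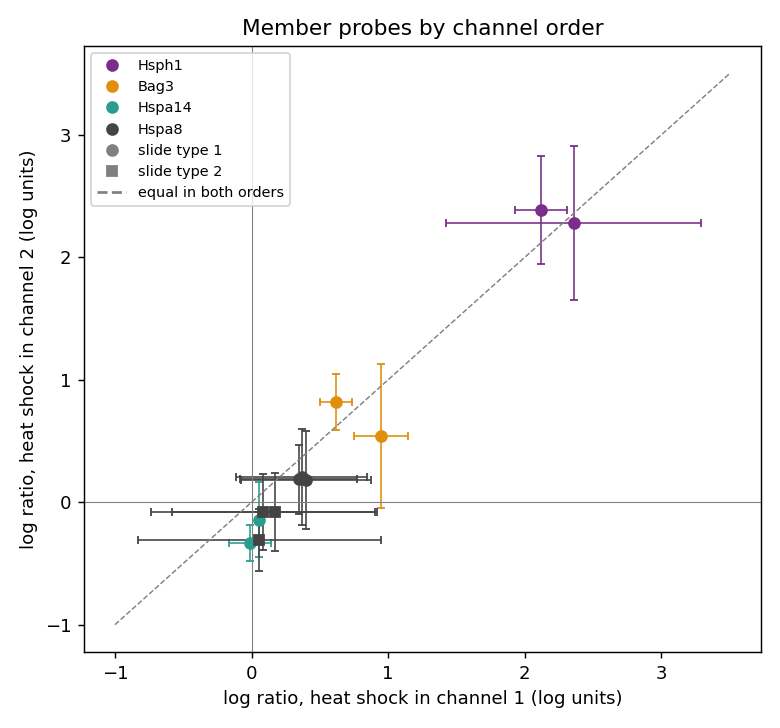
Mean log ratio of each member probe over 3 treatments with heat-shocked RNA in channel 1 (x axis) and in channel 2 (y axis), in log units after turning the sign; circles are slide type 1, squares slide type 2, bars are the SD over treatments and the dashed line marks equal values. Both Hsph1 probes lay above 2 in both orders, and the Hspa8 squares had an SD of 0.75 to 0.89 with heat shock in channel 1.

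Exchanging the channels left Hsph1 and Bag3 on the positive side. Hsph1 had 2.12 ± 0.19 with heat shock in channel 1 and 2.39 ± 0.44 with it in channel 2 at probe 395, and 2.36 ± 0.93 and 2.28 ± 0.63 at probe 3268 (SD, n = 3 treatments). Bag3 had 0.62 ± 0.12 and 0.82 ± 0.23 at probe 1209, and 0.95 ± 0.20 and 0.54 ± 0.59 at probe 3909. Hspa8 on slide type 1 had 0.34 to 0.40 in the first order and 0.18 to 0.21 in the second. Its slide type 2 probes had 0.06 to 0.17 and −0.31 to −0.08. Hspa14 had 0.05 and −0.14 at probe 3110 and −0.01 and −0.33 at probe 6276. Of the 12 member probes, 0 passed the limma test of the difference between orders. The smallest adjusted p was 0.0687, at Hspa14 probe 6276, which alone had an unadjusted limma p under 0.05 (0.019), and the largest was 0.885. Among all probes of slide type 1, 9.65% were called higher and 12.6% lower with heat shock in channel 1. On slide type 2 these shares were 0.0130% and 0%, with 129 and 669 probes at an unadjusted limma p under 0.05.

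Probes of 1 gene agreed to different degrees across the 12 arrays. The Hspa8 probes 5542 and 6117 lay 0.04 units apart (root mean square over 12 arrays), with r = 0.996, whereas probe 195 had r = 0.67 and 0.69 with them. On slide type 2 the Hspa8 probes had r = 0.97 to 0.99 with each other. The Hsph1 probes had r = 0.37 and lay 0.71 apart, the Bag3 probes r = 0.12 and 0.61, and the Hspa14 probes r = 0.03 and 0.34. These are descriptions over arrays that the labels do not give as separate RNA within a treatment. The range of a gene's values sets how high its r can be. The Hsph1 and Bag3 gaps came with single arrays of a suffix pair. At Hsph1 probe 395 in treatment 2 the pair with heat shock in channel 1 differed by 2.0, against a median of 0.13 over all probes in that pair, and 3 of 7680 probes, this one included, differed by as much. At Bag3 probe 3909 in treatment 2 the pair with heat shock in channel 2 differed by 1.72, against a median of 0.14, and 16 probes differed by as much. At Hsph1 probe 3268 the pair of treatment 3 in the first order differed by 1.14, which 12 probes reached. The other probe of the same gene did not share the low value: on the same array Hsph1 probe 3268 read 3.43 in the first case, and Bag3 probe 1209 read 0.82 in the second. No spot intensities were used here to tell dim or saturated spots from others. Hsp70 genes are close in sequence, and cross-hybridisation between them was not tested.

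The genes nearest to the called member probes were found by the smallest root mean square difference over the 12 arrays of slide type 1. For Hsph1 probe 395 these were Ipo7, an importin, at 0.67, the transcription factor Jun at 0.69 and the kinase Irak1 at 0.82. The same 3 genes were nearest to probe 3268, at 1.05, 0.87 and 0.98. All had lower means than Hsph1, of 1.72 ± 0.27, 1.97 ± 0.33 and 1.6 ± 0.14. For Bag3 probe 1209 the nearest were the nuclear receptor Nr6a1 at 0.26, the mitochondrial ribosomal protein gene Mrpl9 at 0.28 and the glycosyltransferase gene B3gnt2 at 0.30. For Bag3 probe 3909 they were Atpaf2 at 0.49, Rbm34 at 0.52 and Ints7 at 0.52, so the Bag3 probes shared no nearest gene. All 9 genes were called on the positive side, which largely follows from picking genes close in value to called positive probes. Over the 12 arrays, r with the Hsph1 probes ran from −0.21 (Ipo7, probe 3268) to 0.64 (Ipo7, probe 395). Jun had r = 0.04 with probe 395 and 0.02 with probe 3268. For the Bag3 probes r ran from 0.29 to 0.63.

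**Figure D3:**
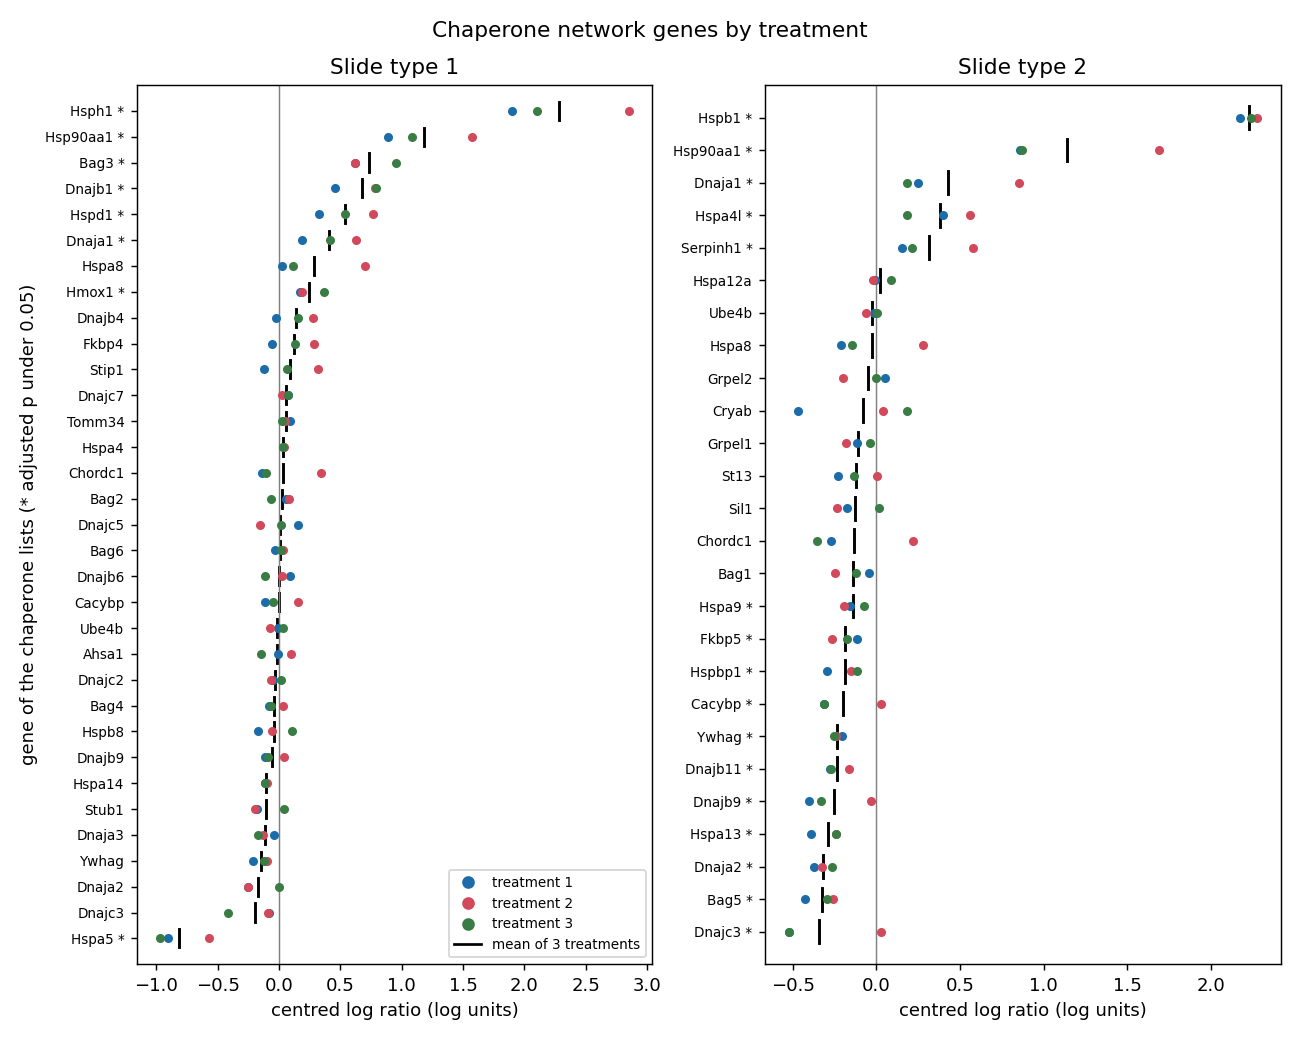
Centred log ratio (x axis, log units) of each measured gene of the chaperone lists (y axis) on slide types 1 and 2; dots are the 3 treatments, the bar their mean, and an asterisk marks a limma adjusted p under 0.05. Hsph1 at 2.28 and Hspb1 at 2.23 lay farthest out on their slide types, and Hspa5 lay farthest out on the negative side, at −0.81.

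The partners of the members were read from 7 lists of chaperone genes. Besides the members, 29 of 65 listed genes were measured on slide type 1, of which 5 were called positive (17.2%) and 1 negative, with a median of 0.00 against −0.04 over all genes. Among all genes of slide type 1, 5.73% were called positive and 5.65% negative. Of the listed genes, 25 were measured on slide type 2, with 5 called positive (20%) and 11 negative (44%) and a median of −0.14 against −0.05. There 18.5% of all genes were called positive and 31.9% negative.

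Within the Hsp70 family, Hspa8 and Hspa14 were accompanied on slide type 1 by Hspa5, the Hsp70 of the endoplasmic reticulum, at −0.81 ± 0.22 (SD, n = 3 treatments, limma adjusted p = 0.000143). Hspa13 had −0.29 ± 0.09 and the mitochondrial Hspa9 −0.14 ± 0.06 on slide type 2. Both were called, as 2 of 4 measured members, but Hspa9 kept its call in 2 of 13 alternatives and lost it when any 1 treatment was left out, at −0.17 to −0.12. These 13 include the fit with treatment 2 turned, which was bound to remove calls. Of the other Hsp110 genes, Hspa4l was called on slide type 2 at 0.38 ± 0.19 (limma adjusted p = 0.000348), and Hspa4 had 0.03 on slide type 1 and was not called. Among exchange factors and Bag genes, Bag3 was the 1 called of 4 on slide type 1, where Bag2, Bag4 and Bag6 had 0.02, −0.04 and 0.00. The other slide type had 2 of 6 called, both negative, Bag5 at −0.33 ± 0.09 and Hspbp1 at −0.19 ± 0.10.

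Of the J-domain genes, 2 of 11 were called positive on slide type 1. These were Dnajb1, an Hsp40 protein that responds to heat, at 0.68 ± 0.19 (SD, n = 3 treatments, limma adjusted p = 0.000275) and Dnaja1 at 0.41 ± 0.22 (limma adjusted p = 0.00899). Of the 2 Dnaja1 probes on slide type 1, probe 2806 had 0.15 and was not called (limma adjusted p = 0.244). As a gene Dnaja1 had 0.43 ± 0.37 on slide type 2 and was called there too. It lost its call with heat shock in channel 2 alone on both slide types, and on slide type 2 also with channel 1 alone. Without treatment 2 its value on slide type 2 was 0.22, still called (limma adjusted p = 0.00623). Dnajc2, the partner of Hspa14, had −0.03 and was not called. Of 5 J-domain genes on slide type 2, 4 were called negative, among them Dnaja2 at −0.32 ± 0.05, Dnajc3 at −0.34 ± 0.32 and Dnajb11 at −0.24 ± 0.06. Without treatment 2, Dnajc3 had −0.52. In the list of Hsp70 and Hsp90 adaptors and quality control genes, 0 of 8 were called by limma on slide type 1. None of them, 0 of 8, had an unadjusted limma p under 0.05. On slide type 2, 2 of 5 were called negative, Fkbp5 at −0.19 ± 0.08 and Cacybp at −0.20 ± 0.20. Cacybp had −0.31 without treatment 2.

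Of the genes whose products work with Bag3, the small heat shock protein gene Hspb1 had 2.23 ± 0.05 (SD, n = 3 treatments, limma adjusted p = 5.27e-14) on slide type 2. The other small heat shock proteins measured, Hspb8 on slide type 1 at −0.04 and Cryab on slide type 2 at −0.08, were not called. The adaptor Ywhag had −0.23 ± 0.02 on slide type 2, where it was called, and −0.15 on slide type 1, where it was not. The list of other genes that Hsf1 is known to raise was chosen with results of these data known. Among all genes, 5.73% were called positive on slide type 1 and 18.5% on slide type 2. In this list all 5 measured values, with Hsp90aa1 on both slide types, were called positive, 3 on slide type 1 and 2 on slide type 2. On slide type 1 these were the cytosolic Hsp90 gene Hsp90aa1 at 1.18 ± 0.35, the mitochondrial chaperonin gene Hspd1 at 0.54 ± 0.22, and Hmox1, which encodes an enzyme, at 0.24 ± 0.11. Hmox1 kept its call in 6 of 12 alternatives, losing it without treatment 1 (0.28) and without treatment 3 (0.18), and Hspd1 lost it with heat shock in channel 2 alone. Hsp90aa1 had 1.14 ± 0.48 and the collagen chaperone gene Serpinh1 0.31 ± 0.23 on slide type 2. The 10 negative calls named for slide type 2 were lost without centring and with either channel order alone, and the positive calls of Hspa4l and Serpinh1 there with either order alone. Serpinh1 also lost its call without centring, at 0.40 (limma adjusted p = 0.104), and without treatment 2 it had 0.18 and was called (limma adjusted p = 0.0151). With channel 2 alone the call of Hsp90aa1 on slide type 2 was lost too, at 0.71 (limma adjusted p = 0.0777). The heat-inducible genes Hspa1a and Hspa1b were not analysed here.

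Averaged over both channel orders, treatment 2 was the highest treatment for Hsph1 and Hspa8. For Hspa8 on slide type 2 this held only through the arrays with heat shock in channel 1. On slide type 1 it was highest for 16 of 29 listed genes (55.2%) and for 35.7% of all genes, and on slide type 2 for 13 of 25 (52.0%) and 19.8%. Of the listed genes called positive, treatment 2 was highest in 3 of 5 on slide type 1 and in 5 of 5 on slide type 2. The share among all genes called positive was not counted. On slide type 2 the treatment 2 arrays also had the widest spread over all probes, with an SD of 0.59 to 0.79 against 0.37 to 0.46. The shares of listed genes are descriptions of lists chosen with results of these data known.

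RNA of whole embryos cannot tell fewer cells of a type from less RNA per cell. Markers of erythroid, yolk sac endoderm, heart muscle, neural and trophoblast cells were read beside the members. On slide type 1, 10 of 37 were measured, with 0 called positive by limma and 1 negative (Tubb3 at −0.21), in a range of −0.21 to 0.06. On slide type 2, 4 of 37 were measured, with 0 positive and 1 negative (Krt18 at −0.19), in a range of −0.19 to 0.09. No heart muscle marker was measured. Since only ratios are deposited, the levels of these markers could not be checked, and their part in the member values was not tested.

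**Figure D4:**
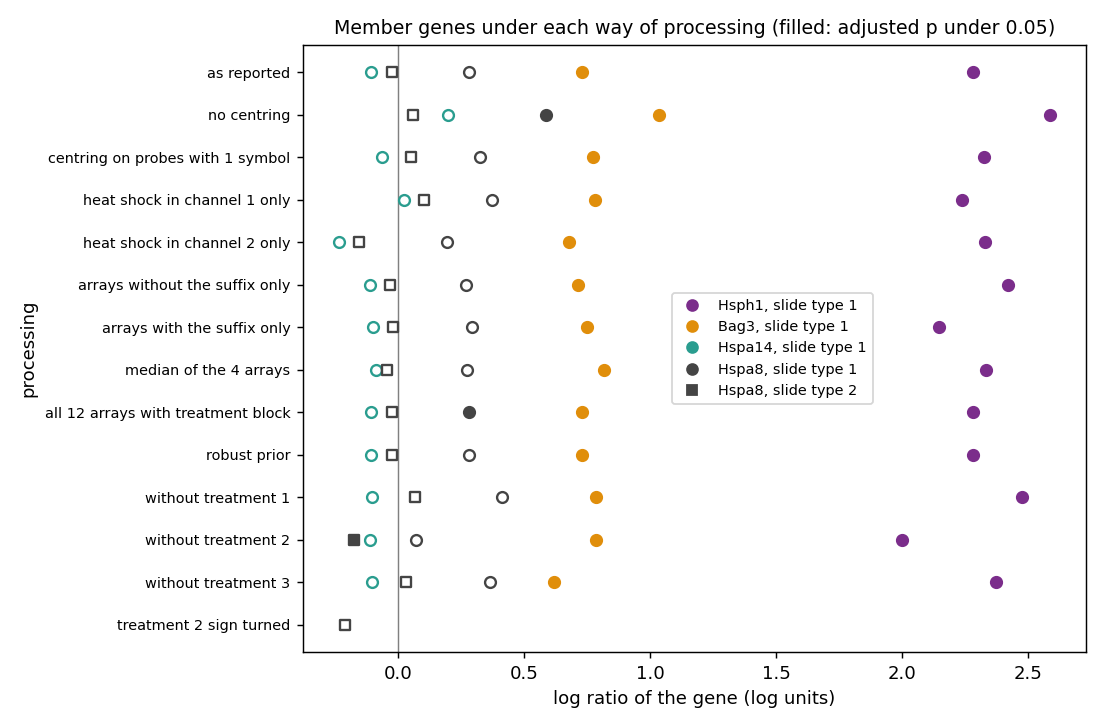
Log ratio (x axis, log units) of each member gene under each way of processing (y axis); filled symbols mark a limma adjusted p under 0.05, circles are slide type 1 and squares slide type 2. Hsph1 ranged from 2.0 to 2.59 and Bag3 from 0.62 to 1.03 over the 12 alternatives, both filled throughout, whereas Hspa8 on slide type 2 lay on both sides of 0.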

How the data were processed

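The values are log ratios that the authors deposited as 1 value table per slide type, treated here as a score of unstated unit. Their log base, numerator, background correction and normalization were choices not given in the sources used here. Each table held 12 arrays and 7680 probes with 0 missing values. On slide type 1, 4749 probes had 1 gene symbol, 227 several and 2704 none in the platform annotation. Slide type 2 had 4935, 275 and 2470. The source names in the labels gave the channel of each RNA. Gene values are means over all probes with that 1 symbol. Tests used limma 3.58.1 (lmFit and eBayes on an intercept) in R 4.3.3 with Benjamini-Hochberg adjustment, and were tested on simulated data. Named genes were all member probes, up to 4 called genes with the smallest p per list and slide type, and the 3 nearest genes to each called member probe. Uncalled partners and 2 markers were named after their values were seen. The members and lists were chosen with earlier results of these data known. Alternatives changed centring, channel order, suffix, averaging, prior, block and treatments. Promoters are from RefSeq, and 3 members matched. Figures were drawn with matplotlib 3.10.9.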

Additional observations from a re-analysis of the deposited data

Results flagged for a closer look

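At Bag3 probe 3909 with heat shock in channel 2, the suffix array of treatment 2 read −0.94, while the other 5 arrays of that order lay between 0.44 and 1.10. Its gap to the nearest array, divided by the range of the 6, was 0.677, above Dixon's 95% critical value for 6 values. Of 24 groups of 6 arrays examined this was the only one past that value, and chance alone passes about 1 in 20, or 1.2 of 24. The other Bag3 probe read 0.82 on the same array.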

How the results depend on the processing

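Each alternative changed 1 choice, and the cause of a change was not tested. Hsph1 (2.0 to 2.59) and Bag3 (0.62 to 1.03) were called in all 12. Without centring, Hspa8 on slide type 1 had 0.58 and was called, and Hspa14 had 0.20 (probes 0.26 and 0.13) and Hspa8 on slide type 2 had 0.057. With the treatment as a replicate block Hspa8 on slide type 1, at 0.28, was called. Member probes called positive on slide type 1 numbered 7 in both settings and 4 to 7 leaving out a treatment, against 4. Leaving out a treatment gave Hspa8 on slide type 2 −0.18 to 0.066, its probe 3292 −0.14 to 0.097 and probe 5771 −0.082 to 0.11, 0 to 2 probes called negative there, and Hspa14 probe 3110 −0.13 to 0.0018. Centring on probes with 1 symbol gave Hspa8 on slide type 2 0.049. With heat shock in channel 1 alone it had 0.10 (probe 2232 0.057), Hspa14 0.021 (probe 3110 0.054), and on slide type 2 Cacybp 0.087, Dnajb11 0.069, Fkbp5 0.22, Hspa9 0.12 and Ywhag 0.14. With channel 2 alone, probes 3292 and 5771 had −0.082 and −0.077. The median of the 4 arrays gave probe 3292 −0.017. Turning treatment 2 on slide type 2, chosen after seeing the data, gave probe 3292 −0.19, probe 5771 −0.16, Dnaja1 −0.14 and Serpinh1 −0.071, with 0 of 7680 probes called by limma on either side and 21 positive and 6 negative at an unadjusted p under 0.05. The treatment means there correlated at r = 0.82 to 0.90, so turning any of them was bound to remove calls. The turned fit therefore cannot test the orientation of treatment 2. Over all probes, where 844 were called positive and 391 negative on slide type 1 and 2219 and 1877 on slide type 2, no centring called 1210 and 14, and 422 and 135. Centring on probes with 1 symbol called 996 and 221, and 3283 and 1205. Channel 1 alone called 1262 positive and 1140 negative on slide type 1 and 213 and 13 on slide type 2. Channel 2 alone called 472 and 304, and 464 and 236. The block fit called 986 and 654 on slide type 1. Arrays without the suffix called 772 and 307 there, and those with it 601 and 196. Leaving out a treatment called 647 to 791 positive and 234 to 430 negative on slide type 1, and 994 to 3038 and 1321 to 1882 on slide type 2.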
